A study of Mus musculus with 17 samples.

Results

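The proteasome is the large protease that degrades proteins tagged with ubiquitin. Transcripts of its constitutive subunits and of their regulators were quantified from RNA of the diaphragm, the breathing muscle, of 17 male C57BL/6J mice aged 4 months. The members are set by symbol, as every gene whose symbol starts with Psma to Psmg followed by a digit, leaving out 4 symbols that hold a hyphen and the 3 immunoproteasome subunits Psmb8, Psmb9 and Psmb10. This gave 47 of 47643 gene symbols, of which 16 are α or β subunits of the 20S core, 30 are regulators or assembly factors, and 1, Psmc3ip, encodes no part of the proteasome. In Control (n = 5) and Control + rFibcd1 (n = 5) the mice carried no tumor, and in LLC (n = 3) and LLC + rFibcd1 (n = 4) Lewis lung carcinoma cells had been placed under the skin of both flanks. rFibcd1 is the C-terminal fragment of mouse Fibcd1 made as a recombinant protein in insect cells and given into the peritoneal cavity, while Control and LLC mice received mock injections of PBS with albumin. No group carries a transgene or deleted gene, and each library is 1 mouse. The study asks whether rFibcd1 limits the changes that a growing tumor brings about in this muscle, and the values of proteasome genes bear on it because the ubiquitin-proteasome pathway degrades much of the protein lost from a wasting muscle.

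As background, the 20S core is a barrel of α and β rings whose proteolytic sites lie on the β subunits Psmb5, Psmb6 and Psmb7. The 19S regulator caps the barrel: its base holds the ATPases that unfold and thread the substrate, and its lid removes the ubiquitin chain. The alternative caps PA28 and PA200 and the inhibitor PI31 bind the same ends of the barrel, and interferon exchanges the 3 proteolytic subunits for those of the immunoproteasome.

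Values are TPM (transcripts per 1000000), which are divided by gene length and can therefore be compared between genes. Depth recovered from the low values was 50.7 to 54.6 M reads per mouse (M, 1000000), and 1 TPM in a gene of 1 kb stood for 23.9 to 26.7 reads, so that sampling noise is small for nearly all members. The defining transcripts of skeletal muscle (Acta1, Ckm, Mb, Myh2, Myh7 and Tnnt3) summed to 45324 to 58042 TPM in every mouse and 3 of these 6 were called lower in LLC against Control. Mitochondrially encoded RNA counts toward the total of 1000000 TPM of each library. It took 45.9% to 48.4% of TPM in Control, 45.4% to 50.4% in Control + rFibcd1, 41.3% to 44.3% in LLC and 43.7% to 46.5% in LLC + rFibcd1. Each member's TPM therefore also moves with that share, and results are given below with and without it. In whole tissue, fewer cells of a type and less RNA per cell cannot be told apart.

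In Control diaphragm the core subunits were higher by median, at 87.7 TPM over the 14 core members tested and 37.0 TPM over the 30 regulators. The summed levels were alike, with means of 1408 TPM for the core and 1420 TPM for the regulators. The highest core member was Psmb5, which carries the chymotrypsin-like site, at 189 TPM ± 7.97 (SD, n = 5). The lowest was the α subunit Psma7 at 43.7 TPM ± 2.20 (SD, n = 5), 4.33-fold below. Psmb5 lay above every other core member in all Control mice (177 to 198 TPM), whereas Psmb1, Psma2, Psmb4 and Psma6, the next in order, had ranges that overlapped between neighbours. The remaining proteolytic subunits stood apart from their neighbours, with Psmb6 at 98.4 to 104 TPM and Psmb7 at 82.9 to 86.1 TPM. Among regulators the base ATPase Psmc5 was highest at 123.8 TPM ± 1.26 (SD, n = 5), and overlapped the lid subunit Psmd7 (118 to 129 TPM). The base ATPases, which form a single ring, ranged from Psmc5 down to Psmc2 at 36.7 TPM. The assembly chaperones, which leave the particle once it is built, were lower, from 31.6 TPM for Psmg2 to 4.85 TPM for Psmd5. PI31 (Psmf1) was at 4.54 TPM. The lowest member tested was Psme2b at 1.49 TPM, a near copy of Psme2 whose reads the counting could share between the pair, so its values are uncertain.

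**Figure D1:**
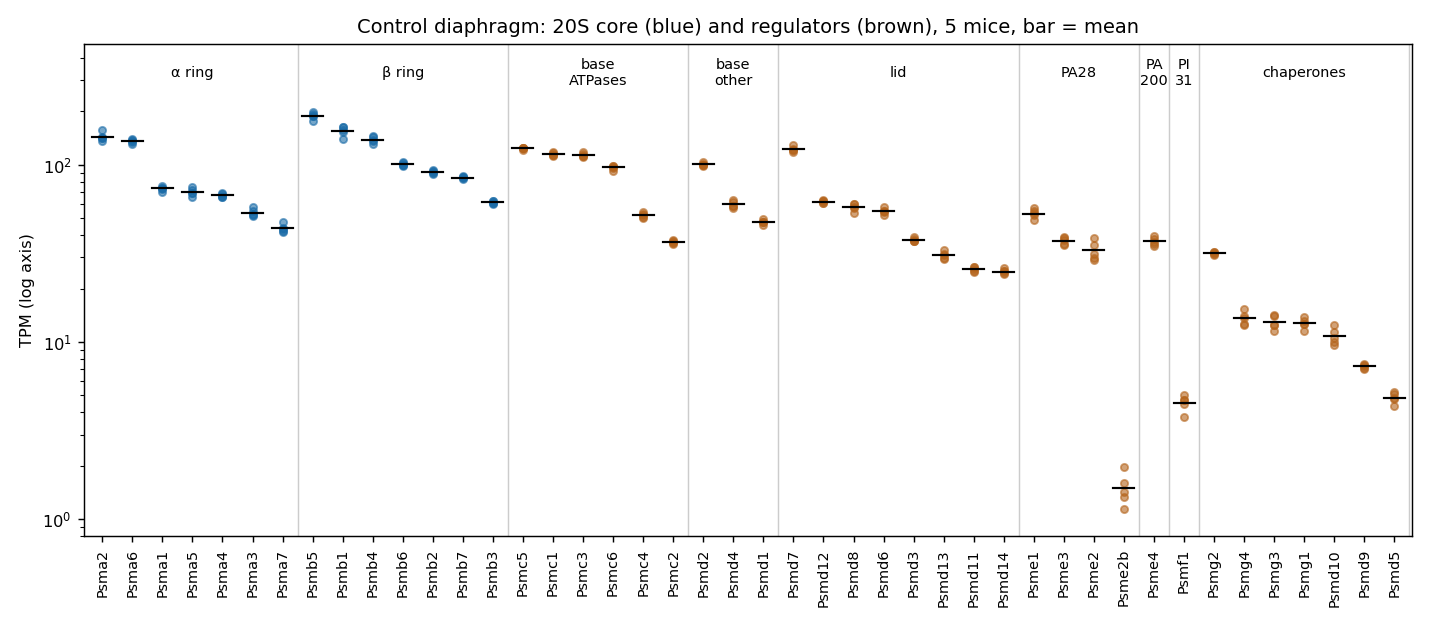
TPM (log axis) of each of the 44 core members and regulators tested in the 5 Control mice, ordered by mean within each role; points are mice and bars are means, with the 20S core in blue and regulators in brown. Psmb5 is highest at 189 TPM, and Psme2b lowest at 1.49 TPM.

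A pair of members did not reach the level at which genes were tested, 1 TPM in at least 3 mice. Psma8, the α subunit of the testis proteasome, did not exceed 0.189 TPM in any mouse. Psmb11, the β subunit of the thymus, was listed at 0 in every mouse but LLC replicate 1, which had 0.00944 TPM. The diaphragm libraries thus held close to none of the tissue-specific core subunits.

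The members varied little between mice of a group. Among the 34 core members and regulators with a Control mean of at least 30 TPM, the median coefficient of variation was 2.81%, against 6.01% over all 2308 genes at that level, and 87.7% of those genes varied more than the median member. The corresponding share was 91.0% in Control + rFibcd1, 81.3% in LLC and 69.2% in LLC + rFibcd1.

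The first comparison asks which of these transcripts differ between tumor-bearing and tumor-free mice under mock injection. In LLC against Control, 19 of 45 members tested rose and 0 fell at an adjusted p under 0.05 (limma, Benjamini-Hochberg over all 13305 genes). Over all genes tested, 29.7% were called higher and 6.02% lower. The calls comprised 5 of 14 core members and 14 of 30 regulators, and every change was small. The median log2 change was 0.077 for the core and 0.15 for the regulators, beside 0.16 over all genes tested, so that 2 of 14 core members and 13 of 30 regulators lay above the median gene. All 3 LLC mice lay above all 5 Control mice for 24 of 45 members, 7 of them core and 17 regulators, where 33.6% of all genes did so. The count rested on single mice, as did that of all genes. Without LLC replicate 3 it fell to 0 members, with 15 of all genes called higher and 9 lower. It was 8 without LLC replicate 1, with 1773 genes higher and 499 lower, and 12 without Control replicate 5, with 2684 higher and 580 lower.

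**Figure D2:**
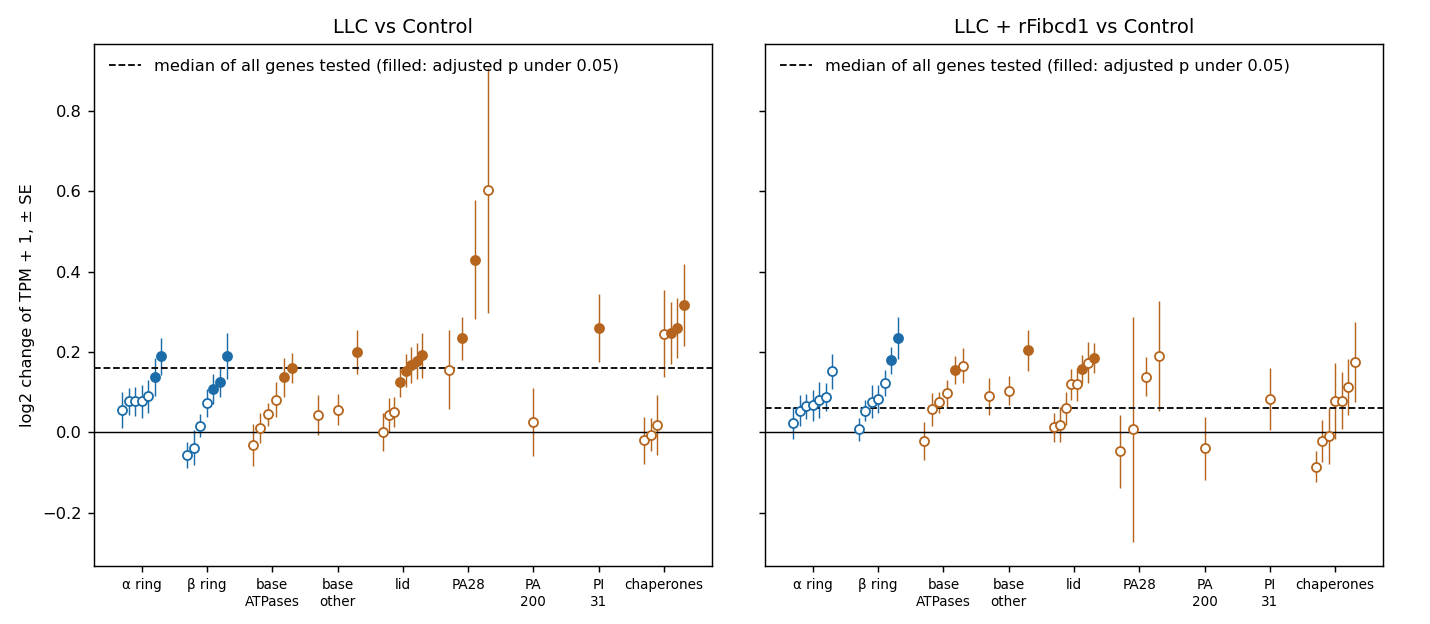
Fitted log2 change of TPM + 1 with its standard error for each tested member by role, for LLC against Control (left) and LLC + rFibcd1 against Control (right), which share the Control mice; filled points have an adjusted p under 0.05 and the dashed line is the median of all genes tested. Most core members (blue) lie between 0 and the dashed line at 0.16 on the left, and the highest filled point is Psme2 at 0.43.

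The proteolytic subunits of the core were not called as deposited. Psmb5 was at 193, 189, 189, 177 and 198 TPM in Control and at 189, 187 and 176 TPM in LLC. The groups overlapped, and the log2 change was -0.038 ± 0.044 (SE, adjusted p = 0.511, limma). Psmb6, of the caspase-like site, was at 99.3, 104, 99.2, 98.4 and 102 TPM in Control and 102, 100 and 103 TPM in LLC, a log2 change of 0.017 ± 0.029 (SE, adjusted p = 0.668, limma). Psmb7, of the trypsin-like site, was at 82.9, 83.9, 84.8, 85.2 and 86.1 TPM in Control and 81.2, 84.7 and 78.1 TPM in LLC, a log2 change of -0.057 ± 0.032 (SE, adjusted p = 0.170, limma). In LLC + rFibcd1 the same subunits were at 190 to 210, 102 to 107 and 83.7 to 87.6 TPM. The genes of these subunits lie at chr14:54614119-54618022 (Psmb5, minus strand), chr11:70525367-70527858 (Psmb6, plus strand) and chr2:38588036-38644087 (Psmb7, minus strand) on GRCm38.

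Relative to the other nuclear transcripts, 2 of the 3 proteolytic subunits fell. When TPM were rescaled to the same total without mitochondrially encoded genes, Psmb5 fell by 0.15 (adjusted p = 0.0455, limma) and Psmb7 fell by 0.17 (adjusted p = 0.0335) on the log2 scale in LLC against Control, and Psmb6 differed by -0.092 (adjusted p = 0.0799). After this rescaling only Psme3 (0.13, adjusted p = 0.0264) and Psmd5 (0.18, adjusted p = 0.0455) were called higher, so that 2 members rose and 2 fell, where 18.2% of all genes were called higher and 10.2% lower. Members above Control without overlap numbered 6 under this scaling, against 23.9% of all genes, and 3 members lay below Control without overlap, Psmb5, Psmb6 and Psmb7, where 11.7% of all genes did so. Median-ratio scaling, which takes the median gene as unchanged (all-gene median 0.0055), again called Psmb5 (-0.22) and Psmb7 (-0.24) lower and 0 members higher, where 14% of all genes were called lower and 15.6% higher. Quantile normalization (all-gene median -0.099) called 5 members lower and 0 higher, where 23.9% of all genes were called lower and 11.3% higher. Of the members that rose as deposited, Psme2, Psme3, Psmg3, Psmd4, Psmd8, Psmb1 and Psma7 kept a positive value under all 3 scalings, whereas Psmb4, Psmd3 and Psmd13 were negative under median-ratio scaling and quantile normalization. Psmc4, Psmd11, Psmd14, Psma5, Psmb2 and Psmc1 were negative under median-ratio scaling but not under quantile normalization, and Psmf1, Psmd5 and Psmd10 under quantile normalization but not under median-ratio scaling. Psmb2 was also negative, at -0.0015, without mitochondrially encoded genes.

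Of the other α and β subunits, Psma7 and Psmb1 lay above the median gene and the rest below it. Of the α ring, which gates entry to the barrel, 2 of 7 rose, where 29.7% of all genes were called higher. Psma7 was at 44.1, 47.2, 42.3, 41.7 and 43.2 TPM in Control and 48.7, 49.4 and 51.6 TPM in LLC, without overlap, a log2 change of 0.19 ± 0.047 (SE, adjusted p = 0.0129, limma). Psma5 changed by 0.14 (adjusted p = 0.0369), and Psma1 was the lowest of the ring at 0.056 (adjusted p = 0.327). Of the β ring, 3 of 7 rose. Psmb1 was at 163, 163, 153, 139 and 156 TPM in Control and 173, 180 and 178 TPM in LLC, a log2 change of 0.19 ± 0.057 (SE, adjusted p = 0.0211, limma). Psmb1 has no proteolytic site of its own, as is true of Psmb4 (0.12, adjusted p = 0.0196) and Psmb2 (0.11, adjusted p = 0.0376), the other β members called. None of the 3 proteolytic subunits was called, and 5 of the 11 remaining core members were.

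**Figure D3:**
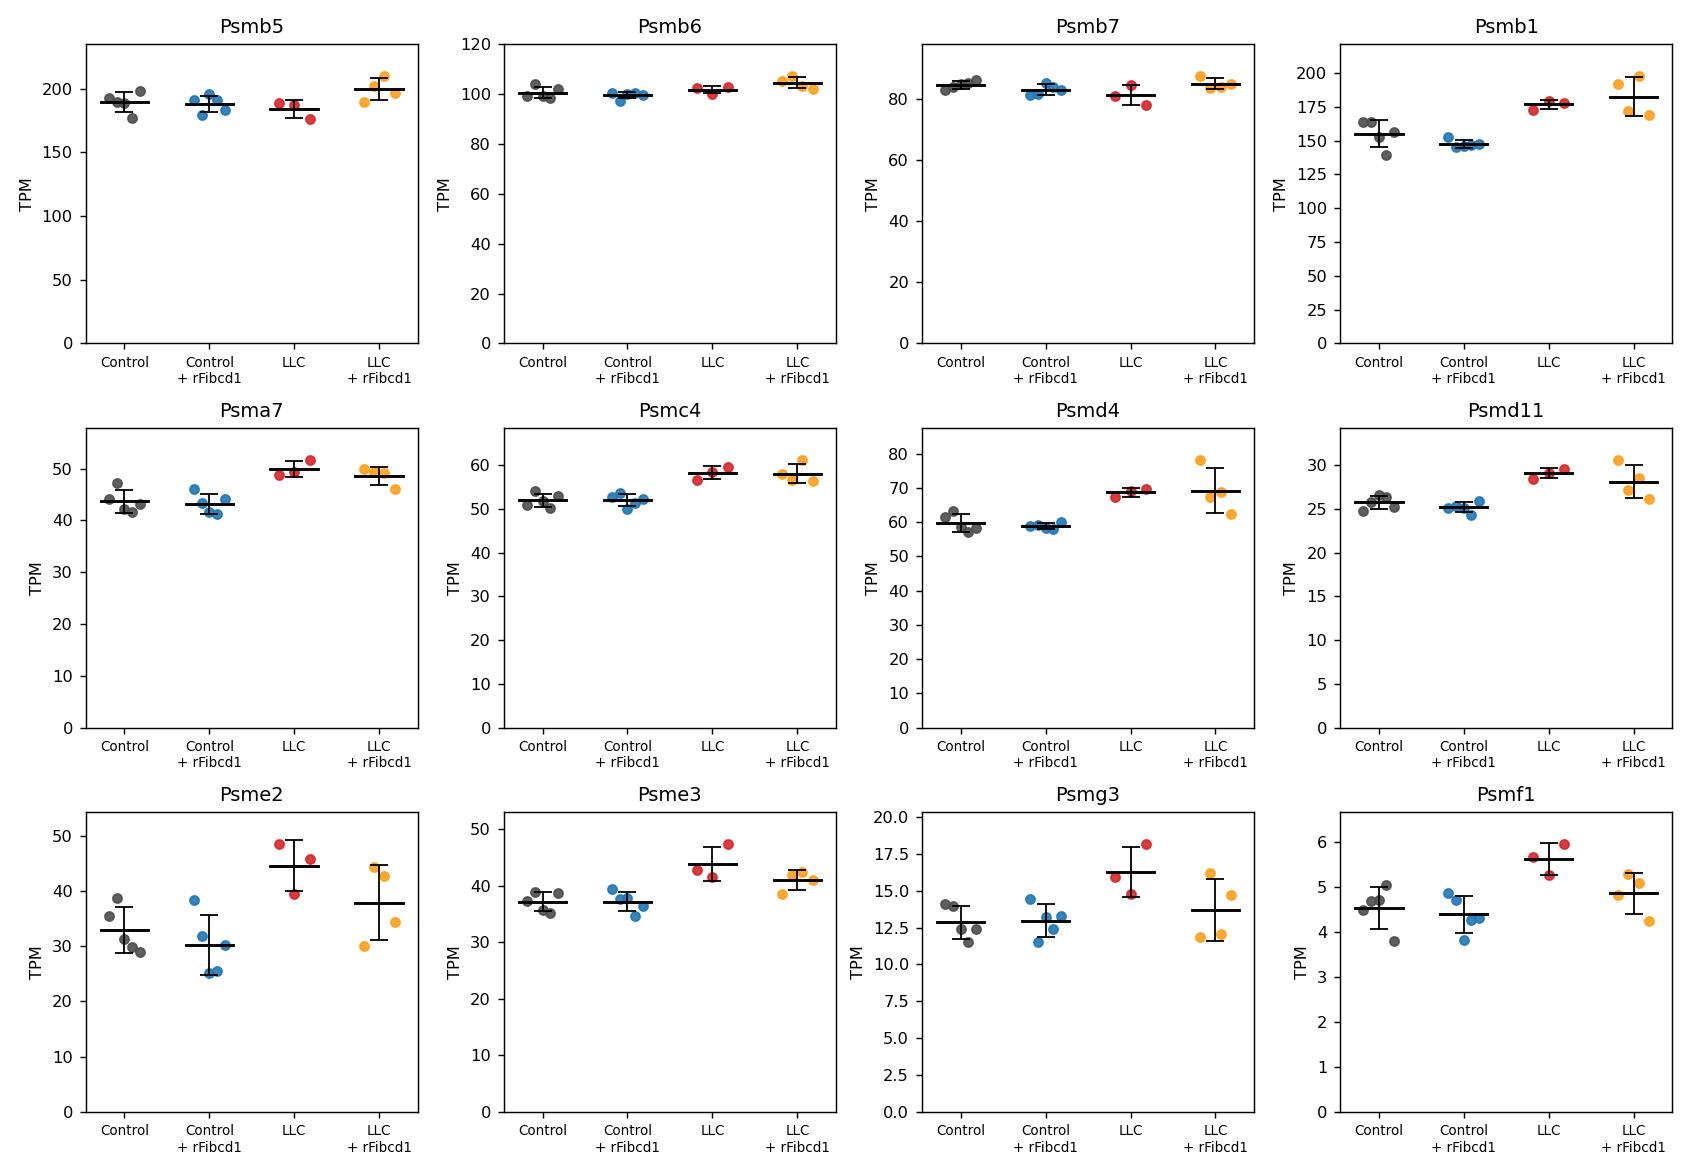
TPM of 12 members in each mouse by group, with the mean (bar) and SD (error bar); the axes start at 0. Psmb5, Psmb6 and Psmb7 overlap between LLC and Control, whereas the LLC mice lie above the Control mice in the other panels.

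Of the 17 subunits of the base and lid, 8 rose in LLC against Control, where 29.7% of all genes were called higher, and their median log2 change was 0.081, beside 0.16 over all genes. Among the ATPases of the base 2 of 6 rose. Psmc4 was at 51.0, 54.1, 51.8, 50.4 and 52.9 TPM in Control and 56.7, 58.5 and 59.7 TPM in LLC, without overlap, a log2 change of 0.16 ± 0.037 (SE, adjusted p = 0.0113, limma). Psmc1 changed by 0.14 (adjusted p = 0.0379), whereas Psmc6 was at -0.031 (adjusted p = 0.662) and the most abundant ATPase, Psmc5, at 0.045 (adjusted p = 0.211). Of the non-ATPase base subunits 1 of 3 rose, the ubiquitin receptor Psmd4, from 61.6, 63.2, 58.5, 57.2 and 58.2 TPM in Control to 67.4, 69.0 and 69.8 TPM in LLC, a log2 change of 0.20 ± 0.055 (SE, adjusted p = 0.0165, limma). The scaffold subunit Psmd1 was at 0.044 (adjusted p = 0.497). Of the lid 5 of 8 rose. Psmd8 had the largest change, 0.19 (adjusted p = 0.0185), and Psmd12 the smallest, 0.00045 (adjusted p = 0.995). The deubiquitinase of the lid, Psmd14, rose by 0.18 (adjusted p = 0.0136) and Psmd11, a subunit whose amount limits assembly of the complex in stem cells, by 0.17 (adjusted p = 0.0149). Psmd11 was at 24.8, 25.7, 26.5, 26.4 and 25.2 TPM in Control and 28.5, 29.1 and 29.6 TPM in LLC, without overlap.

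The largest changes lay outside the 19S cap. PA28 is made of Psme1 and Psme2 in the cytoplasm and of Psme3 in the nucleus. Of its 4 listed genes 2 rose, where 29.7% of all genes were called higher. Psme2 was at 35.4, 38.8, 31.3, 29.9 and 29.0 TPM in Control and 48.5, 39.4 and 45.7 TPM in LLC. LLC replicate 2 and Control replicate 2 almost met, and the log2 change was 0.43 ± 0.149 (SE, adjusted p = 0.0368, limma). Its partner Psme1 was at 53.2, 57.0, 51.7, 54.5 and 48.6 TPM in Control and 63.3, 55.6 and 58.5 TPM in LLC, with overlap, a log2 change of 0.16 (adjusted p = 0.219). Psme3 was at 37.4, 38.9, 35.8, 35.2 and 38.7 TPM in Control and 42.9, 41.6 and 47.3 TPM in LLC, without overlap, a log2 change of 0.23 ± 0.053 (SE, adjusted p = 0.0112, limma). Psme2b was at 0.60 (adjusted p = 0.129) with the uncertainty named above. PA200 (Psme4), which stimulates degradation without ubiquitin, was at 0.026 (adjusted p = 0.826). PI31 (Psmf1) rose from 4.49, 4.69, 4.71, 5.04 and 3.79 TPM in Control to 5.67, 5.26 and 5.95 TPM in LLC, a log2 change of 0.26 ± 0.085 (SE, adjusted p = 0.0288, limma).

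Of the 7 assembly chaperones, 3 rose, where 29.7% of all genes were called higher. Psmg3, which helps to build the α ring, was at 14.1, 14.0, 12.4, 11.5 and 12.4 TPM in Control and 15.9, 14.8 and 18.2 TPM in LLC, a log2 change of 0.32 ± 0.102 (SE, adjusted p = 0.0280, limma). Its partner Psmg4 changed by 0.25 (adjusted p = 0.0851). Psmd5 and Psmd10, which guide the base, rose by 0.26 (adjusted p = 0.0189) and 0.25 (adjusted p = 0.0240), while the third base chaperone, Psmd9, was at -0.0061 (adjusted p = 0.916). Psmg1 and Psmg2, the other α-ring chaperones, were at 0.018 (adjusted p = 0.866) and -0.020 (adjusted p = 0.802). Psmc3ip, which encodes a recombination factor, was at -0.063 (adjusted p = 0.560).

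The core was compared with the regulators within each mouse as the mean log2(TPM + 1) of the 14 core members minus that of the 30 regulators. This difference was 1.46 to 1.52 in Control and 1.43, 1.44 and 1.40 in LLC, so that the LLC mice lay below every Control mouse. In Control + rFibcd1 it ranged from 1.44 to 1.54, with the lowest mouse level with the highest LLC mouse, and in LLC + rFibcd1 from 1.48 to 1.53, above the LLC mice. The median fitted change of the core was 0.068 lower than that of the regulators on the log2 scale (0.077 against 0.15). Among the regulators, the base and lid subunits had a median of 0.081, near that of the core. The difference between core and regulators is a description and was not tested, since the lists were known beforehand. It had the same sign under each alternative run and was closest to 0 with quantile normalization, at -0.025.

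Summed over all 47 members, TPM were 2842, 2894, 2801, 2763 and 2850 in Control, 2812, 2750, 2758, 2734 and 2797 in Control + rFibcd1, 2984, 3012 and 3029 in LLC, and 3107, 3023, 3088 and 2901 in LLC + rFibcd1. Every tumor-bearing mouse thus lay above every tumor-free mouse. Per 1000000 outside the mitochondrially encoded genes, the sums were 5265 to 5433 in Control, 5135 to 5514 in Control + rFibcd1, 5160 to 5408 in LLC and 5415 to 5802 in LLC + rFibcd1, and the groups with and without tumor overlapped.

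**Figure D4:**
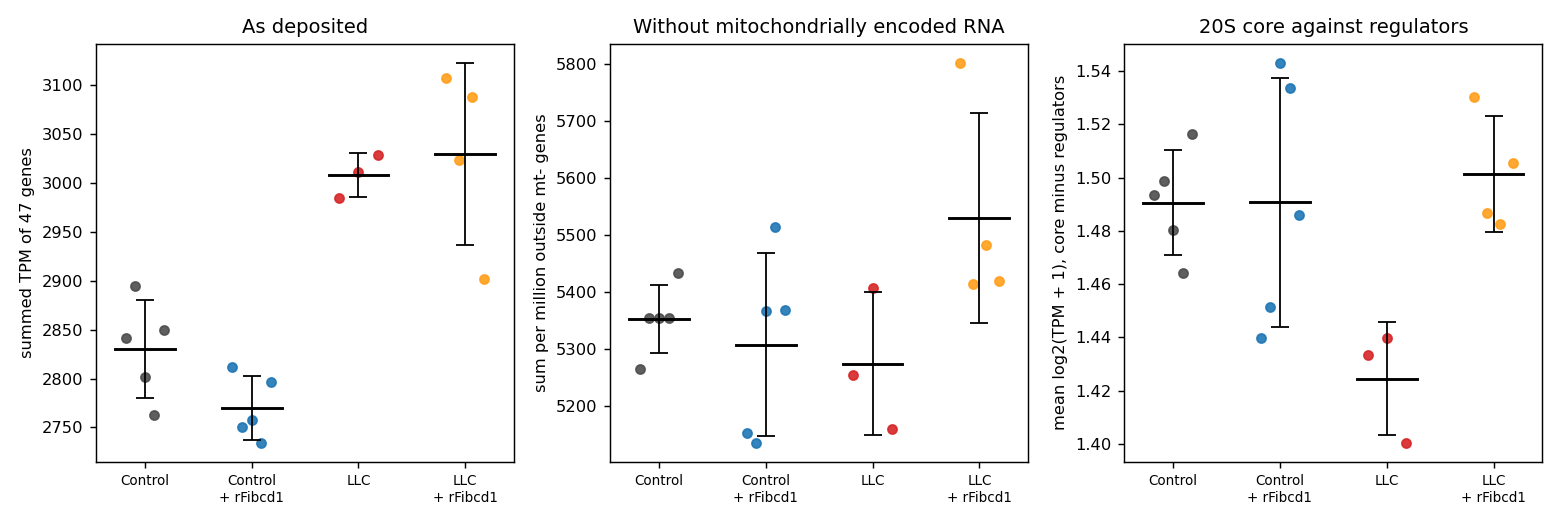
Each mouse by group, with mean and SD: summed TPM of the 47 members as deposited (left), the same sum per 1000000 outside the mitochondrially encoded genes (middle), and the mean log2(TPM + 1) of the core minus that of the regulators (right); the axes do not start at 0. The 7 tumor-bearing mice lie above the 10 tumor-free mice on the left but not in the middle, and the 3 LLC mice have the lowest balance of core to regulators, with the highest of them level with 1 mouse of Control + rFibcd1.

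An immunoproteasome subunit takes the place of 1 proteolytic subunit, so the pair was compared as a ratio within each mouse. Percentages are of TPM as deposited and do not depend on how libraries are scaled, whereas folds and tests are of (TPM + 1) ratios and depend on the added 1. With 0.1 TPM added in its place, the log2 differences in LLC against Control were 1.26, 1.29 and 0.62 for the ratios to Psmb5, Psmb6 and Psmb7, with the same exact permutation p. Psmb8 reached 6.58%, 8.39%, 4.73%, 6.15% and 3.43% of the Psmb5 level in Control and 13.2%, 12.7% and 14.7% in LLC. The LLC mice lay above every Control mouse, and the ratio was 2.28-fold higher (exact permutation test of log2 ratios, two-sided p = 0.0179, the smallest that 56 splits allow, and 0.0714 after Benjamini-Hochberg adjustment over 12 ratio tests). Psmb9 was at 4.18% ± 1.42 of Psmb6 in Control (SD, n = 5) and 9.79% ± 0.235 in LLC (SD, n = 3), 2.16-fold higher. Psmb10 was at 29.0% ± 3.30 of Psmb7 in Control (SD, n = 5) and 44.6% ± 5.36 in LLC (SD, n = 3), 1.52-fold higher. The exact permutation p was again 0.0179 for both, with an adjusted value of 0.0714. The numerators moved: the log2 changes were 1.15 for Psmb8 (adjusted p = 0.0198, limma), 1.125 for Psmb9 (adjusted p = 0.0235) and 0.54 for Psmb10 (adjusted p = 0.0139), beside Psmb5, Psmb6 and Psmb7, which were not called as deposited.

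In LLC + rFibcd1 the mice divided. Psmb8 was at 4.24%, 8.53%, 11.5% and 4.49% of Psmb5, all below the LLC mice. Psmb9 was at 3.02%, 5.64%, 10.6% and 2.83% of Psmb6, with replicate 3 above the LLC mice. Psmb10 was at 25.8%, 41.1%, 40.2% and 29.4% of Psmb7, overlapping LLC. The exact permutation p of LLC + rFibcd1 against LLC was 0.0571, 0.143 and 0.171 for the ratios with Psmb5, Psmb6 and Psmb7 (adjusted 0.171, 0.343 and 0.343), where 35 splits allow no p below 0.0286. None of the 3 ratios passed in Control + rFibcd1 against Control (exact p of 0.365, 0.381 and 0.746) or in LLC + rFibcd1 against Control (exact p of 0.603, 0.619 and 0.238). The change with rFibcd1 did not pass as different between tumor-bearing and tumor-free mice in an exact permutation within each of them (p = 0.273, 0.322 and 0.219).

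**Figure D5:**
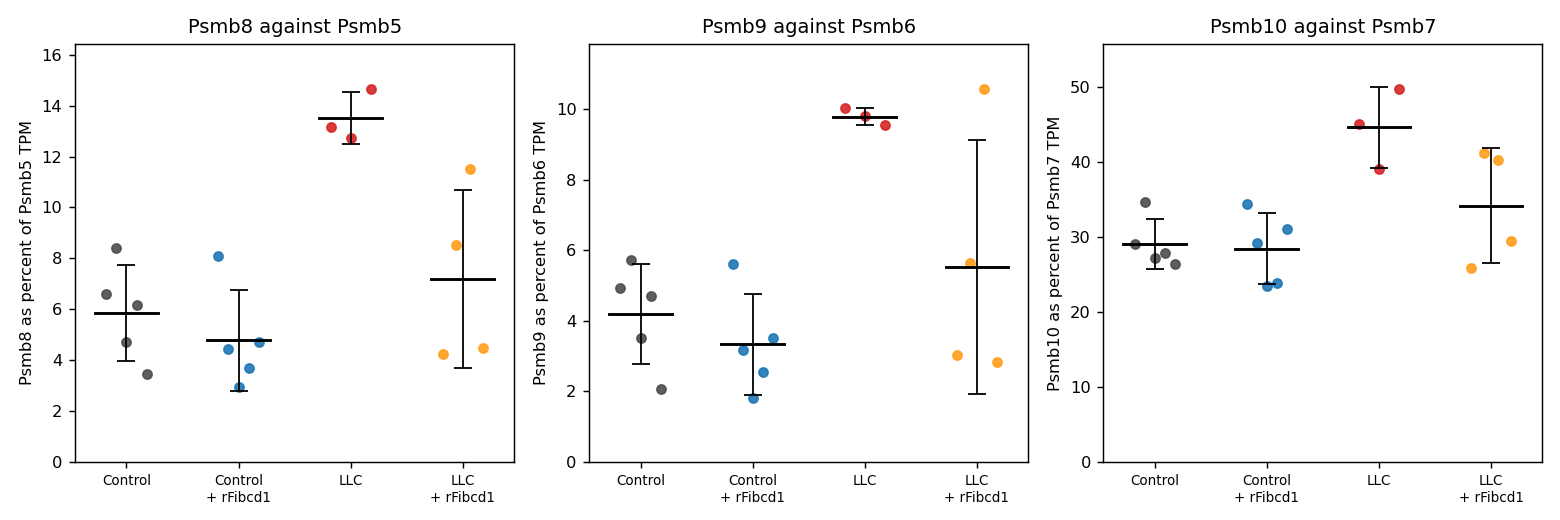
TPM of each immunoproteasome subunit as a percent of the constitutive subunit it replaces, in each mouse by group, with mean and SD. The LLC mice lie above all tumor-free mice in each panel, and the 4 LLC + rFibcd1 mice spread from the tumor-free range up to or close to the LLC mice.

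Markers of immune cells were higher in LLC than in Control as well. The 5 B cell markers used (Cd79a, Cd79b, Ms4a1, Pax5 and Cd22) were all called higher in LLC against Control, and their summed level was 2.24 to 81.8 TPM in Control, 2.92 to 118 TPM in Control + rFibcd1, 193 to 245 TPM in LLC and 15.9 to 237 TPM in LLC + rFibcd1. None of them was under 1 TPM in the mean of any group. The 6 T cell markers were all called higher in LLC too, at 1.52 to 14.8 TPM in Control, 0.853 to 8.99 TPM in Control + rFibcd1, 23.9 to 40.8 TPM in LLC and 2.19 to 39.5 TPM in LLC + rFibcd1, with Cd8a under 1 TPM in the mean of both tumor-free groups and Cd4 in that of Control + rFibcd1. Of the macrophage markers 3 of 5 were called, at 76.2 to 133, 50.3 to 204, 182 to 223 and 96.0 to 211 TPM in the same order of groups. All 5 neutrophil markers tested were called, at 1.84 to 14.3, 2.87 to 78.4, 45.0 to 106 and 55.0 to 206 TPM in that order, with Ly6g under 1 TPM in the mean of every group and Cxcr2 in that of Control. In Control + rFibcd1 the mouse with the highest neutrophil sum, replicate 3, had the lowest Psmb8 ratio, 2.94%. Of 6 interferon response genes 3 were called. Their sums were 54.9 to 80.3 TPM in Control, 43.6 to 81.0 TPM in Control + rFibcd1, 88.9 to 102.9 TPM in LLC and 49.1 to 87.6 TPM in LLC + rFibcd1. The mouse of LLC + rFibcd1 with the highest Psmb8 and Psmb9 ratios, replicate 3, also had the highest B cell sum of that group, 237 TPM. The Psmb10 ratio was highest in replicate 2, which had the highest macrophage sum, 211 TPM, beside 131 TPM in replicate 3, and the highest neutrophil sum, 206 TPM. With a B cell score as covariate, the log2 change in LLC against Control was 0.043 for Psme2, 0.16 for Psmb8, 0.13 for Psmb9 and 0.17 for Psme3. It was 0.20 for Psmd8, 0.18 for Psmd3, 0.17 for Psmd11 and 0.18 for Psmd4, close to the values without the score. Other called genes moved further. Psmd5 was at 0.10 with the score and 0.26 without, Psmf1 at 0.10 and 0.26, and Psmd10 at 0.11 and 0.25. Psma7 was at 0.11 and 0.19, Psmd14 at 0.10 and 0.18, and Psmb10 at 0.19 and 0.54. In that fit limma called 0 members, and 7 genes higher and 2 lower of all 13305. With the same score 5 members were called higher in LLC + rFibcd1 against Control, where 270 of all genes were higher and 110 lower. All 3 LLC mice score high, so the score moves with the group, and the part of such cells in these values was not tested.

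Promoter windows are shown for a few genes of the proteolytic subunits, PA28 and the immunoproteasome, to place the motifs searched. RefSeq promoters on GRCm38.p6, from 250 bases before to 50 bases after the start site, were matched for 39 of 47 members (42 windows). They were searched on both strands for TGACNNNGC, the core of the antioxidant response element that Nfe2l1 and Nfe2l2 bind, for GAAA, any 2 bases and GAAA again, the interferon-stimulated response element, and for TTCNNNGAA, the element of STAT factors. The first stood in 14.3% of member windows, 12.4% of all promoter windows and 14.4% of those of genes tested. The second stood in 11.9% of member windows (5 of 42), 3.44% of all and 3.04% of those of genes tested, and the third in 4.76%, 8.30% and 6.99%. Psmd9 held the first at base -31 and the second at base -159, without overlap, and the third reads the same on both strands. The windows below are written from 5′ to 3′ on the strand of the gene, with the match in capitals, and show a catalytic pair with the antioxidant motif, Psme1 with the interferon motif in the opposite direction, and Psmb8 with the STAT motif.
Psmb5 (chr14:54618024-54618052, minus strand, motif from base -47): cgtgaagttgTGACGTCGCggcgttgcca
Psmb6 (chr11:70525338-70525366, plus strand, motif from base -9): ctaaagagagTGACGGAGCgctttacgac
Psme1 (chr14:55578493-55578522, plus strand, motif from base 9): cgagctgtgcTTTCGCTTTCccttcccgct
Psmb8 (chr17:34198088-34198116, plus strand, motif from base -97): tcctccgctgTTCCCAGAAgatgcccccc
The bases are counted from the RefSeq start site. Other members with the antioxidant motif were Psmd9, Psme4, Psmd12 and Psmc6, of which none was called in LLC against Control. Other members with the interferon motif were Psmd4, Psmd9, Psmb3 and Psmg4, of which Psmd4 was called. Psme2, which rose, and the 3 immunoproteasome genes held no interferon motif in these windows. The STAT motif stood in 1 of the 3 immunoproteasome windows, and among members in Psmd2 and Psmg1, neither of which was called. The CCAAT box (CCAAT) stood in 53.8% of core windows, 21.4% of regulator windows, 37.4% of all promoter windows and 37.0% of those of genes tested. The GC box (GGGCGG) stood in 38.5% of core windows, 64.3% of regulator windows, 35.7% of all and 60.4% of those of genes tested. A match is a run of letters and not a measured binding site.

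With rFibcd1 in tumor-bearing mice, no member passed the test. In LLC + rFibcd1 against LLC, 0 of 45 members were called by limma, 4 had an unadjusted p under 0.05, as did 3025 of all 13305 genes, and limma called 0.113% of all genes in either direction. After Benjamini-Hochberg adjustment, Dunn's test called 0 members, but it called 0 of all genes in each of the 4 comparisons it was run on, LLC against Control included. Without adjustment, Dunn's p was under 0.05 for 4993 genes in LLC against Control and for 954 in LLC + rFibcd1 against LLC. The median log2 change was 0.00034 for the core and -0.025 for the regulators, where the median gene was at -0.11, and 37 of 45 members lay above that median. Psmb5 had a log2 change of 0.11 ± 0.046 (SE, adjusted p = 0.205, limma), with 190, 202, 210 and 197 TPM in LLC + rFibcd1. All 4 genes of PA28 and all 7 assembly chaperones had a negative value, from -0.59 for Psme2b to -0.0011 for Psmg2. Only 27.0% of all genes tested were positive in this comparison, and Psme3, Psmd9, Psmg1, Psmg2 and Psmg4 lay above the median gene. Psme2 was at 44.4, 42.7 and 34.4 TPM in replicates 2 to 4 of LLC + rFibcd1 and within the Control range in replicate 1, overlapping both LLC and Control, with a log2 change of -0.24 ± 0.156 (SE, adjusted p = 0.322, limma).

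In tumor-free mice rFibcd1 gave no called member. In Control + rFibcd1 against Control, 0 of 45 members were called by limma, 3 had an unadjusted p under 0.05, as did 584 of all genes, and 0% of all genes were called. Dunn's test called 0 members and, as above, 0 of all genes. The log2 changes ran from -0.18 for Psmc3ip to 0.024 for Psme2b, and all 14 core members had a small negative value, from -0.078 for Psma2 to -0.0073 for Psma3. The median of all genes tested was -0.060 and 21.6% of them were positive, so a negative sign was common to most genes. The interaction of tumor and rFibcd1 called 0 members, with 2 at an unadjusted p under 0.05, as were 1142 of all genes, and it called 0% of all genes. For scale, the standard error of the log2 change of Psmb5 was 0.038 in Control + rFibcd1 against Control and 0.060 for the interaction, and changes of that size could not be told from the spread.

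LLC + rFibcd1 was also compared with Control, a comparison that shares its Control mice with that of LLC. Here 6 of 45 members rose and 0 fell, where 2.07% of all genes were called higher and 1.01% lower. The median log2 change was 0.078 for the core and 0.086 for the regulators, beside 0.059 over all genes tested. Psmb1 was at 191, 172, 198 and 169 TPM in LLC + rFibcd1, above every Control mouse, a log2 change of 0.23 ± 0.052 (SE, adjusted p = 0.0258, limma), beside 0.19 in LLC. Psmb4 changed by 0.18 (adjusted p = 0.0101), beside 0.12 in LLC. The remaining calls were subunits of the base and lid. Psmd4 changed by 0.20 (adjusted p = 0.0423), beside 0.20 in LLC, Psmd3 by 0.18 (adjusted p = 0.0153), beside 0.15, Psmd13 by 0.16 (adjusted p = 0.0266), beside 0.13, and Psmc4 by 0.15 (adjusted p = 0.0246), beside 0.16. Without mitochondrially encoded genes 0 members were called by limma, where 1.18% of all genes were called higher and 1.28% lower. Limma also called 0 members with median-ratio scaling (197 of all genes higher and 159 lower), quantile normalization (143 and 223) and only the groups compared (181 and 79). Psmd4 lost its call in 14 of 17 fits that each left out 1 mouse. The count fell to between 1 and 3 without any one of LLC + rFibcd1 replicates 1 and 3 or Control replicates 1, 3 and 4. Over all genes the calls fell too in these fits, from 276 higher and 134 lower to 113 to 178 higher and 54 to 88 lower.

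With both treatments pooled, the 7 tumor-bearing mice were compared with the 10 tumor-free mice. As deposited, 31 of 45 members rose and 0 fell, 10 of 14 core members and 21 of 30 regulators, where 38.8% of all genes were called higher and 5.98% lower. Median-ratio scaling called 1 member higher, Psme2, and 3 lower, where 19.1% of all genes were called higher and 17.1% lower. Quantile normalization called Psme2 higher and 5 members lower, where 13.7% were called higher and 25% lower. The members called lower, Psmb7, Psmd9 and Psmc6 under both and Psmb5 and Psmg1 under quantile normalization, were not called as deposited. Of the 4 core members not called, 3 were Psmb5 (0.032, adjusted p = 0.399), Psmb6 (0.046, adjusted p = 0.0664) and Psmb7 (-0.0070, adjusted p = 0.807), and the other was Psma1 (0.065, adjusted p = 0.0849). The largest core change was that of Psmb1, 0.25 ± 0.038 (SE, adjusted p = 0.000834, limma), and the largest regulator change that of Psme2, 0.36 (adjusted p = 0.0118). Every tumor-bearing mouse lay above every tumor-free mouse for 9 members, Psmb1, Psmb2, Psmb4, Psma6, Psmc1, Psmc4, Psmd3, Psmd8 and Psmd13, where 1.74% of all genes did so. Without mitochondrially encoded genes 9 of 45 members rose and 0 fell, where 24.6% of all genes were called higher and 10.5% lower, and 1 member, Psmb1, still had no overlap, against 0.958% of all genes. Psmb1 was at 145 to 163 TPM in all tumor-free mice but Control replicate 4, which had 139 TPM, and at 169 to 198 TPM in tumor-bearing mice.

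Outside the rule, 29 further genes of the ubiquitin-proteasome pathway were tested, from a list of partners and ubiquitin suppliers. In LLC against Control 8 rose and 1 fell, a share close to the 29.7% higher and 6.02% lower of all genes, and the median log2 change was 0.11 against 0.16 over all genes. Ubd, an interferon-induced modifier that sends proteins to the proteasome, was at 1.11, 1.66, 0.135, 0.215 and 0.0445 TPM in Control and 4.99, 3.47 and 6.04 TPM in LLC, a log2 change of 1.92 (adjusted p = 0.0188, limma). Of the ubiquitin genes, Rps27a changed by 0.44 (adjusted p = 0.0144) and Ubb by 0.15 (adjusted p = 0.0340). Uba1, the main ubiquitin-activating enzyme, changed by 0.21 (adjusted p = 0.00969). The proteasome's ubiquitin receptor Adrm1 changed by 0.17 (adjusted p = 0.0225), the maturation factor Pomp by 0.11 (adjusted p = 0.0318), the shuttle Rad23b by 0.13 (adjusted p = 0.0273) and the segregase cofactor Nploc4 by 0.17 (adjusted p = 0.0223). Zfand5, an activator of the 26S proteasome that muscle makes in atrophy, fell by 0.23 (adjusted p = 0.0171, limma), from 70.4, 61.4, 72.0, 73.9 and 67.3 TPM in Control to 55.5, 59.9 and 60.3 TPM in LLC, without overlap. Nfe2l1, the factor that induces proteasome genes when the proteasome is impaired, was at -0.027 (adjusted p = 0.710) and the proteasome-bound deubiquitinase Usp14 at 0.090 (adjusted p = 0.252).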

How the data were processed

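Diaphragm RNA of 17 mice was sequenced, 1 library per mouse, so p-values measure the spread between mice. The authors trimmed reads, filtered them on quality and length, mapped them in CLC Genomics Workbench to GRCm38 (mm10 in the submitters' processing notes) and deposited TPM values for 47643 gene symbols. Each column sums to 1000000, and no count table was used here. Whether counting used strand is not given in the sources used here. Depth was recovered from low values, of which 80.9% to 83.4% were whole reads within 0.02.

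The 13305 genes that reached 1 TPM in 3 or more mice were fitted as log2(TPM + 1) in limma 3.58.1 (R 4.3.3), with 4 groups, 13 residual degrees of freedom and an empirical Bayes trend. Tests were two-sided, with Benjamini-Hochberg adjustment over all genes and a threshold of 0.05. Fold changes on this scale understate low genes. Ratios were tested by exact permutation. Scripts were tested on simulated data. The study's own test, Kruskal-Wallis with Dunn's comparisons, was an alternative, because groups of 3 to 5 hardly allow it. Dunn's p-values were adjusted here over all genes, whereas the study used p under 0.05 and names no adjustment. The other alternatives were another pseudocount, no filter, 3 scalings, a B cell covariate, a replicate block, only the groups compared, and leaving out each mouse.

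Members, roles and lists were chosen with earlier results of these data known. A gene of the pathway list and one of the B cell list are not reported here and were left out of every list value and of the B cell score. Genes are named by role: the proteolytic subunits, the largest called changes of each contrast, the highest and lowest of each role, the extremes of level, and called genes of the pathway list. Gene positions come from GENCODE vM21 and promoters from RefSeq GRCm38.p6.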

Additional observations from a re-analysis of the deposited data

Results flagged for a closer look

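In 153 groups of 4 or 5 values, 4 held a mouse far from the rest by Dixon's criterion, where chance gives about 1 in 20 groups. Psma1 was at 68.4 TPM in LLC + rFibcd1 replicate 4, with the others at 76.2 to 77.6 TPM. Psmc5 was at 121.7 TPM in Control replicate 1, with the others at 123.9 to 124.8 TPM. Ubb was at 816 TPM in Control replicate 4, with the others at 881 to 892 TPM. Psmb10 was at 29.1 TPM in Control replicate 2, with the others at 22.7 to 24.1 TPM.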

How the results depend on the processing

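The number of members called depended on the processing. In LLC against Control it was 19 as reported, 4 without mitochondrially encoded genes, 2 with median-ratio scaling, 5 with quantile normalization, 0 with the B cell score, 0 with the replicate block and 0 by Dunn's test. Over all genes these last 3 called 7, 3 and 0 higher and 2, 2 and 0 lower. In LLC + rFibcd1 against Control it was 6, and 0 under each of the 3 scalings and 0 with only the groups compared. It was 3 with the replicate block, where 127 of all genes were higher and 46 lower, and 0 by Dunn's test. In tumor-bearing against tumor-free mice it was 31, and 9, 4 (1 higher and 3 lower) and 6 (1 higher and 5 lower) under the 3 scalings in the same order and 10 with the B cell score (495 of all genes higher and 135 lower). The median of all genes was 0.160 in LLC against Control as deposited, 0.081 without mitochondrially encoded genes, 0.0055 with median-ratio scaling and -0.099 with quantile normalization. The core minus the regulators was -0.068, but -0.025 with quantile normalization and -0.029 with the B cell score. Members without overlap, recounted without mitochondrially encoded genes after seeing the data, fell from 24 to 6 in LLC against Control and from 9 to 1 with tumors pooled. The cause was not tested. Replicate numbers did not pair the mice: 4 of 22 same-numbered pairs correlated above 0.1 (r from -0.459 to 0.485).

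Leaving out each mouse gave 0 to 21 calls in LLC against Control, 1 to 7 in LLC + rFibcd1 against Control and 27 to 32 with tumors pooled. Genes called higher over all genes numbered 15 to 4424, 113 to 427 and 4006 to 5950 in the same order. The log2 ratio of Psmb8 to Psmb5 was 1.03 to 1.32, and its exact permutation p was 0.0571 without Control replicate 1 or 4. The log2 change in LLC against Control ran from -0.0473 to 0.000963 for Psmc6, -0.0497 to 0.0476 for Psmd12, -0.0052 to 0.05002 for Psme4 and -0.0588 to 0.0253 for Psmg2.

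In LLC against Control, Psma2, Psma3, Psma4, Psma6, Psmb3, Psmc2, Psmc3, Psmd2, Psmd6, Psmd7 and Psmg1 were positive as deposited and negative under each scaling. Psma5, Psmb2 and Psmc1 are covered above. Among the genes chosen by the naming rule above, those that changed sign in LLC against Control were as follows. Without mitochondrially encoded genes they were Psma1 (-0.0531), Psmb6 (-0.0924), Psmc5 (-0.0645), Psmd1 (-0.0639), Psmd12 (-0.108), Psme4 (-0.0817) and Usp14 (-0.0120). With median-ratio scaling they were Adrm1 (-0.0101), Nploc4 (-0.0134), Pomp (-0.0649), Psma1 (-0.127), Psmb4 (-0.0591), Psmb6 (-0.166), Psmc4 (-0.0207), Psmc5 (-0.139), Psmd1 (-0.137), Psmd11 (-0.00998), Psmd12 (-0.181), Psmd13 (-0.0539), Psmd14 (-0.000971), Psmd3 (-0.0265), Psme1 (-0.0263), Psme4 (-0.154), Rad23b (-0.0465), Ubb (-0.0365) and Usp14 (-0.0806). With quantile normalization they were Nploc4 (-0.00347), Pomp (-0.0818), Psma1 (-0.0657), Psmb4 (-0.0246), Psmb6 (-0.0654), Psmc5 (-0.0517), Psmd1 (-0.108), Psmd10 (-0.000893, and -0.00786 with tumors pooled), Psmd12 (-0.149), Psmd13 (-0.0442), Psmd3 (-0.0207), Psmd5 (-0.0560, and -0.0276 with tumors pooled), Psme4 (-0.145), Psmf1 (-0.0557, and -0.0419 with tumors pooled), Rad23b (-0.0371) and Usp14 (-0.160). With the B cell score they were Nfe2l1 (0.0356), Psme1 (-0.0942), Psme4 (-0.0293) and Psmg2 (0.00908), and with the replicate block Psme4 (-0.0289) and Psmg2 (0.00114). With a pseudocount of 0.1 TPM 1 single-gene result lost its call, and without the filter 4 did, with no change of sign.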
